A study of Homo sapiens with 6 samples.

Results

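The interleukin 1 family was followed through 10 genes: the ligands IL1A, IL1B, IL18, IL33 and IL36G, the receptor antagonists IL1RN and IL36RN, and the receptor chains IL1R1, IL1RAP and IL1R2. They were chosen by name, with earlier results of these data known. All 10 were found among the 18417 genes that had a feature with a single gene symbol, each through 1 feature. RNA of a human prostate epithelial line and of its malignant descendant was hybridised to 6 arrays, 1 colour each. The parent RWPE-1, a non-tumorigenic line from normal adult prostate immortalised with human papillomavirus 18, was untreated and was sampled at passages 18, 38 and 42. CAsE-PE is the malignant line that arose from RWPE-1 under continuous 5 µM sodium arsenite, sampled after 30, 33.5 and 35 weeks of exposure. Both groups were grown in serum-free keratinocyte medium with pituitary extract and epidermal growth factor. The 3 CAsE-PE arrays are exposure times of 1 transformed line, and the labels give neither the passage of the exposed cells nor an untreated control of matched time in culture. The arrays of a group differ in passage or weeks, and nothing in the labels says that they came from independent cultures. The p-values therefore measure only the spread between these arrays, which holds passage or exposure time as well as technical variation.

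Interleukin 1 alpha and beta are inflammatory cytokines that bind the same receptor, IL1R1, which signals only after the accessory chain IL1RAP joins it. The receptor antagonist encoded by IL1RN occupies IL1R1 without recruiting IL1RAP, and IL1R2 is a decoy that binds ligand without signalling. Interleukins 18, 33 and 36 are relatives with receptors of their own, and those of 33 and 36 also use IL1RAP. Epithelial cells are a source of interleukin 1 alpha, interleukin 18 and interleukin 33, which they can hold ready and release on damage.

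The arrays had median intensities of 137 to 143 over named genes. The epithelial label was checked on the basal keratin gene KRT5, which stood at 12.05 ± 0.05 in RWPE-1 and 11.93 ± 0.13 in CAsE-PE (log2 scale, mean ± SD, n = 3 each). Of 11 epithelial markers measured, 2 rose and 1 fell: the other basal keratin gene, KRT14, fell by 1.60 (adjusted p = 0.00748), while the desmosomal gene DSP (1.06, adjusted p = 0.00153) and the E-cadherin gene CDH1 (0.39, adjusted p = 0.0186, or 0.0811 without passage 38) rose. Of 14 leukocyte markers, 11 lay in the dimmest 33.3% of genes, among them the pan-leukocyte gene PTPRC. So did 8 of 9 fibroblast and 7 of 8 endothelial markers. No detection call came with the intensities, so a low value cannot be told from background. Differences are given as log2(intensity + 1) in CAsE-PE minus that in RWPE-1, from a limma fit to all genes with Benjamini-Hochberg adjustment. Genes with an adjusted p under 0.05 are said to rise or fall. In RNA from whole cultures, fewer expressing cells and less RNA per cell cannot be told apart.

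Both interleukin 1 ligands, their antagonist and, narrowly, the accessory chain were lower in CAsE-PE. Of the 10 genes, 4 fell, none rose and 6 missed the threshold, where 8.71% of all genes tested fell, 9.04% rose and 17.7% changed in either direction. IL1B fell most (6.48-fold), followed by IL1RN (2.89-fold), IL1A (2.56-fold) and IL1RAP (1.64-fold). In these same 4 of the 10 genes the groups did not overlap, a share close to the 38.9% of all genes. The median difference of the 10 was −0.53, beside −0.06 over all genes. Without passage 38, 949 genes rose and 939 fell over all genes, and without 35 weeks 1035 and 1059, while 3 of the 10 fell in each of these fits.

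**Figure D1:**
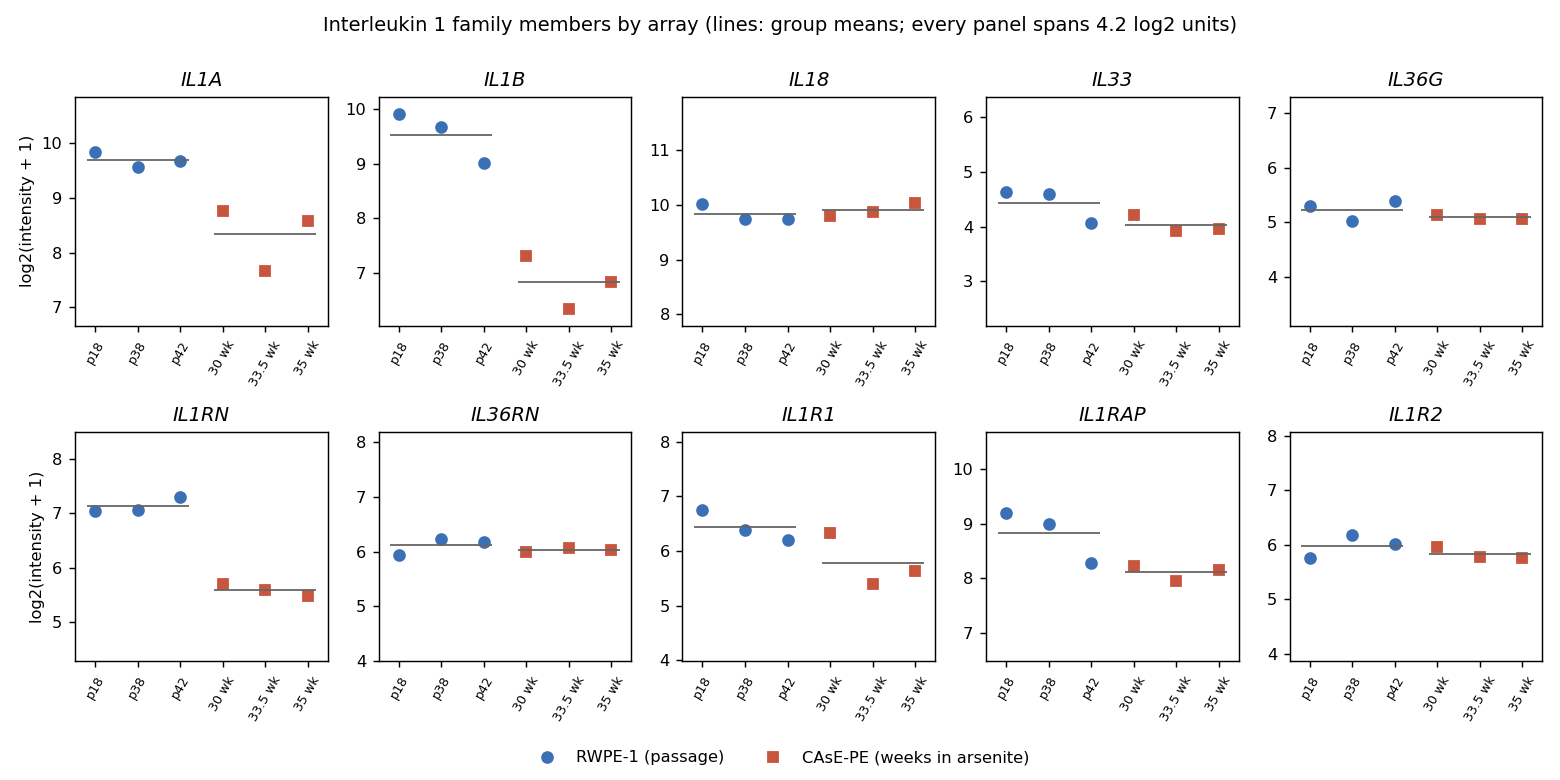
The log2(intensity + 1) of each of the 10 genes is plotted for the 3 RWPE-1 arrays (circles, by passage) and the 3 CAsE-PE arrays (squares, by weeks in arsenite), with a line at each group mean and the same span in every panel. IL1A, IL1B and IL1RN step down between the groups without overlap, IL1RAP at passage 42 lies just above the CAsE-PE arrays, and IL18 stays between 9.74 and 10.03.

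Among the ligands, IL1B, the secreted inflammatory cytokine that caspase 1 matures, read 9.91, 9.67 and 9.01 on the log2 scale at passages 18, 38 and 42. It read 7.32, 6.35 and 6.83 in CAsE-PE at 30, 33.5 and 35 weeks. The lowest RWPE-1 array was 1.69 above the highest CAsE-PE array. The mean went from 9.53 ± 0.46 (SD, n = 3) to 6.83 ± 0.48, a difference of −2.70 (SE 0.27, 95% interval −3.31 to −2.08, adjusted p = 0.000256). Its call held in all 14 alternative fits, with differences between −2.95 and −2.46.

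IL1A, the ligand that is active without caspase cleavage and can also act in the nucleus, read 9.84, 9.56 and 9.67 in RWPE-1. In CAsE-PE it read 8.76, 7.67 and 8.58. The groups were 0.80 apart, and the 33.5-week array was the lowest, as it was for IL1B. The difference was −1.35 (SE 0.25, 95% interval −1.91 to −0.79, adjusted p = 0.00565), and the call held in all 14 alternative fits.

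The other ligands did not pass the threshold. IL18, a constitutively stored precursor that caspase 1 also cleaves, read 10.02, 9.74 and 9.75 in RWPE-1 and 9.80, 9.87 and 10.03 in CAsE-PE. These groups overlapped fully, and the 95% interval of the difference ran from −0.20 to 0.33 (difference 0.06, adjusted p = 0.739). IL33, a nuclear alarmin, read 4.64, 4.60 and 4.06 against 4.22, 3.92 and 3.96 (−0.40, SE 0.17, adjusted p = 0.131). Its passage 42 array lay within the CAsE-PE range, and without that array the difference was −0.59 (adjusted p = 0.0164). IL36G, an interleukin 36 agonist of squamous epithelia, read 5.29, 5.02 and 5.38 against 5.14, 5.06 and 5.06 (−0.14, SE 0.12, adjusted p = 0.427). IL33 and IL36G were both among the dimmest 33.3% of genes, where fold changes are understated.

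Of the antagonists, IL1RN fell and IL36RN did not pass. IL1RN read 7.03, 7.05 and 7.29 in RWPE-1 and 5.70, 5.60 and 5.48 in CAsE-PE. The gap of 1.34 between the groups compares with SDs of 0.14 and 0.11 within them. The difference was −1.53 (SE 0.11, 95% interval −1.78 to −1.27, adjusted p = 4.49e-05), the smallest adjusted p of the 10 genes. The mean intensity of IL1RN in CAsE-PE was 47.4, where a low value cannot be told from background, so the size of its fall is uncertain. The feature gives 1 value for the gene, so the secreted and the intracellular forms of the antagonist are not separated. IL36RN, the antagonist of the interleukin 36 receptor, read 5.94, 6.24 and 6.18 against 5.99, 6.06 and 6.03, with a 95% interval of the difference from −0.34 to 0.15 (adjusted p = 0.575).

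Of the receptor chains, IL1RAP was near the threshold and the other two did not pass it. IL1RAP, the signalling partner shared by the receptors for interleukins 1, 33 and 36, read 9.20, 8.99 and 8.29 in RWPE-1 and 8.22, 7.96 and 8.16 in CAsE-PE. The passage 42 array was only 0.07 above the 30-week array. The difference was −0.72 (SE 0.21, adjusted p = 0.0450). This call was kept in 5 of 14 alternative fits and was lost with any 1 array other than passage 42 left out (highest adjusted p = 0.150, without passage 38). IL1R1, the signalling receptor, read 6.76, 6.38 and 6.21 against 6.33, 5.40 and 5.64. Its 30-week array lay among the RWPE-1 values, the difference was −0.67 (SE 0.23, adjusted p = 0.0800), and without that array it was −0.94 (adjusted p = 0.00651). The decoy IL1R2 read 5.76, 6.18 and 6.02 against 5.96, 5.78 and 5.75 (−0.15, SE 0.13, adjusted p = 0.440), with groups that overlapped.

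**Figure D2:**
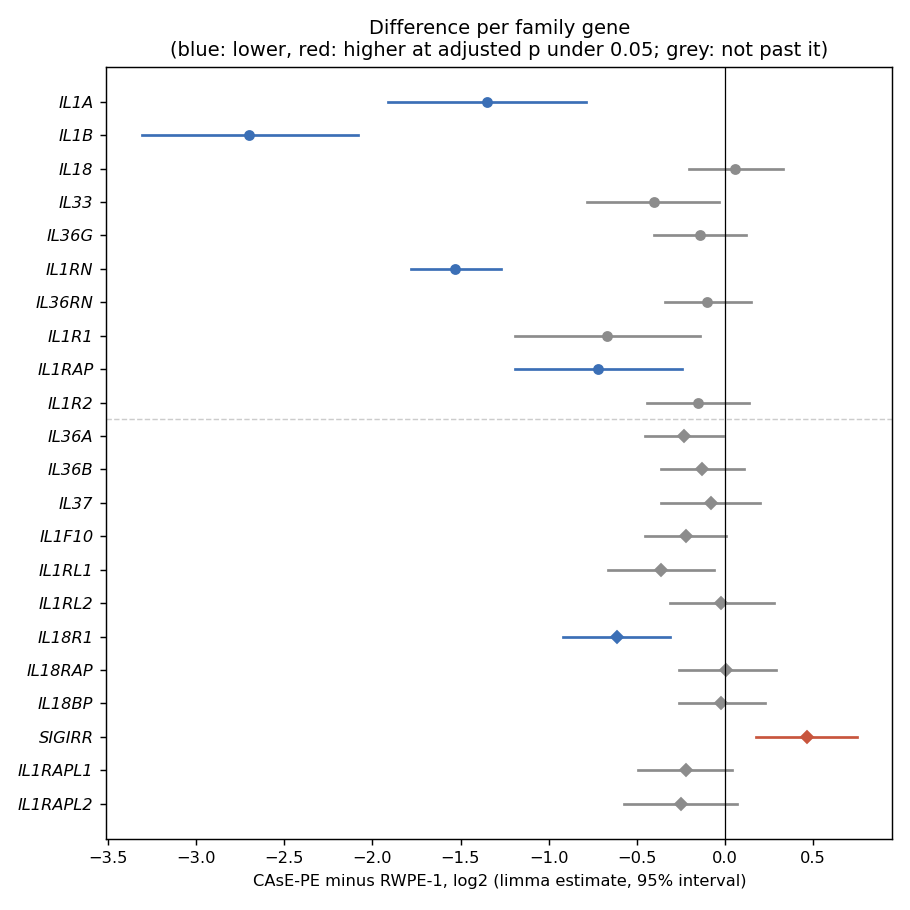
Each row gives the limma difference in log2 units, CAsE-PE minus RWPE-1, with its 95% interval for the 10 genes (circles, above the dashed line) and 12 further family genes (diamonds). Among the circles only the intervals of IL1A, IL1B, IL1RN and IL1RAP are coloured as passing, and IL18 sits at 0.06.

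Within RWPE-1, IL1B, IL33, IL1R1 and IL1RAP were each highest at passage 18 and lowest at passage 42. IL1RAP changed by −0.29 per 10 passages (SE 0.11, unadjusted p = 0.0221, adjusted p = 0.817) and IL1R1 by −0.22 (SE 0.10, unadjusted p = 0.0462, adjusted p = 0.848) in a limma model with the group, passage and weeks. IL1B had the same slope as IL1RAP with a larger error (−0.29, SE 0.13, adjusted p = 0.848). Within CAsE-PE, IL1R1 changed by −0.16 per week (SE 0.05, unadjusted p = 0.00762, adjusted p = 0.225). After adjustment 0 of the 10 genes passed for either trend in limma, and at an unadjusted p under 0.05 it was 2 for passage and 1 for weeks. Over all 18417 genes, 4 passed for passage (0.0217%) and 46 for weeks (0.25%) after adjustment. At an unadjusted p under 0.05 in limma it was 1072 of them for passage and 2072 for weeks. This model has 2 residual degrees of freedom. As the passage of the exposed cells is not given, time in culture and arsenite exposure cannot be told apart in these differences.

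The balance between an inhibitor and the protein it opposes was compared as a log2 difference within each array, of which only the shift between groups can be read. IL1RN minus IL1B was −2.88, −2.62 and −1.73 in RWPE-1 and −1.62, −0.75 and −1.35 in CAsE-PE. These groups did not overlap but came within 0.11 of each other. The shift was 1.17 (exact two-sided permutation p = 0.1, the smallest that 3 against 3 arrays allow, and 0.4 adjusted over the 4 balances), so a smaller fall of the antagonist than of this agonist was not established. IL1RN had a mean intensity of 47.4 in CAsE-PE, where a low value cannot be told from background, so the size of this shift is uncertain. IL1RN minus IL1A was −2.81, −2.51 and −2.38 against −3.06, −2.06 and −3.10, which overlapped (shift −0.17, exact p = 0.8, adjusted 0.9). The shift of IL36RN minus IL36G was 0.05 (exact p = 0.9, adjusted 0.9). IL1R2 minus IL1R1 shifted by 0.51, from −0.47 ± 0.47 to 0.04 ± 0.38 (SD, n = 3 each, exact p = 0.3, adjusted 0.6), with overlapping groups, and by 0.24 without passage 18. Both of these genes were among the dimmest 33.3%.

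**Figure D3:**
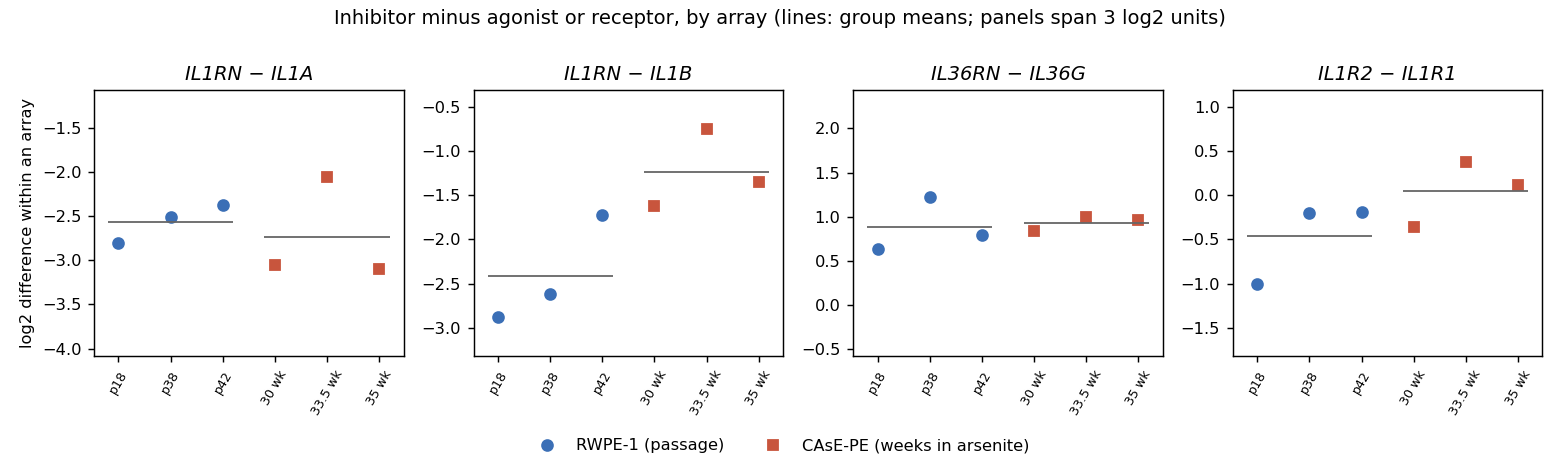
The log2 difference between an inhibitor and the ligand or receptor it opposes is plotted for each array, with RWPE-1 as circles by passage, CAsE-PE as squares by weeks and lines at the group means. Only IL1RN minus IL1B separates the groups, with passage 42 at −1.73 close to 30 weeks at −1.62.

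Most of the family lies in a pair of gene clusters on chromosome 2, and its calls were scattered within them. In the ligand cluster, in chromosome order, IL1A and IL1B come first, then IL37, IL36G, IL36A, IL36B, IL36RN and IL1F10, and IL1RN closes it. The falls were in the first, second and last of these 9 genes, and the 6 genes between them differed by −0.23 to −0.08 without passing. All 6 were among the dimmest 33.3% of genes, so their values cannot be told from background and a fall in them may not be visible. The 3 that fell were not, but IL1RN lay close to that cut, at percentile 35.2. Its mean intensity in CAsE-PE (47.4) was below that of IL36RN (64.1), 1 of the 6. Of the 6 measured genes on either side of the cluster, SLC20A1 (−0.87, adjusted p = 0.00134) and TTL (−0.67, adjusted p = 0.0130) fell, and CKAP2L, next to IL1A, differed by 0.21 (adjusted p = 0.445). With the median shift of the 24 nearest measured genes taken off in each array, IL1B differed by −2.50, IL1RN by −1.39 and IL1A by −1.16, and all 3 passed (highest adjusted p = 0.0133). IL1RAP, on chromosome 3, differed by −0.60 in that fit (adjusted p = 0.134).

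In the receptor cluster, IL18R1, the ligand-binding chain of the interleukin 18 receptor, fell (−0.61, SE 0.14, adjusted p = 0.0138). It went from 4.54 ± 0.14 to 3.93 ± 0.22 (SD, n = 3), among the dimmest genes, and its call was lost without passage 18 (adjusted p = 0.0530) or passage 38 (0.0539). The neighbouring IL1RL1, the interleukin 33 receptor, differed by −0.36 (adjusted p = 0.0972) and IL1RL2, the interleukin 36 receptor, by −0.02 (adjusted p = 0.944). Across both clusters, MAP4K4, a kinase gene beside IL1R2, had the largest fall among the flanking genes (−1.05, adjusted p = 0.00275), and it was singled out after its value was seen.

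**Figure D4:**
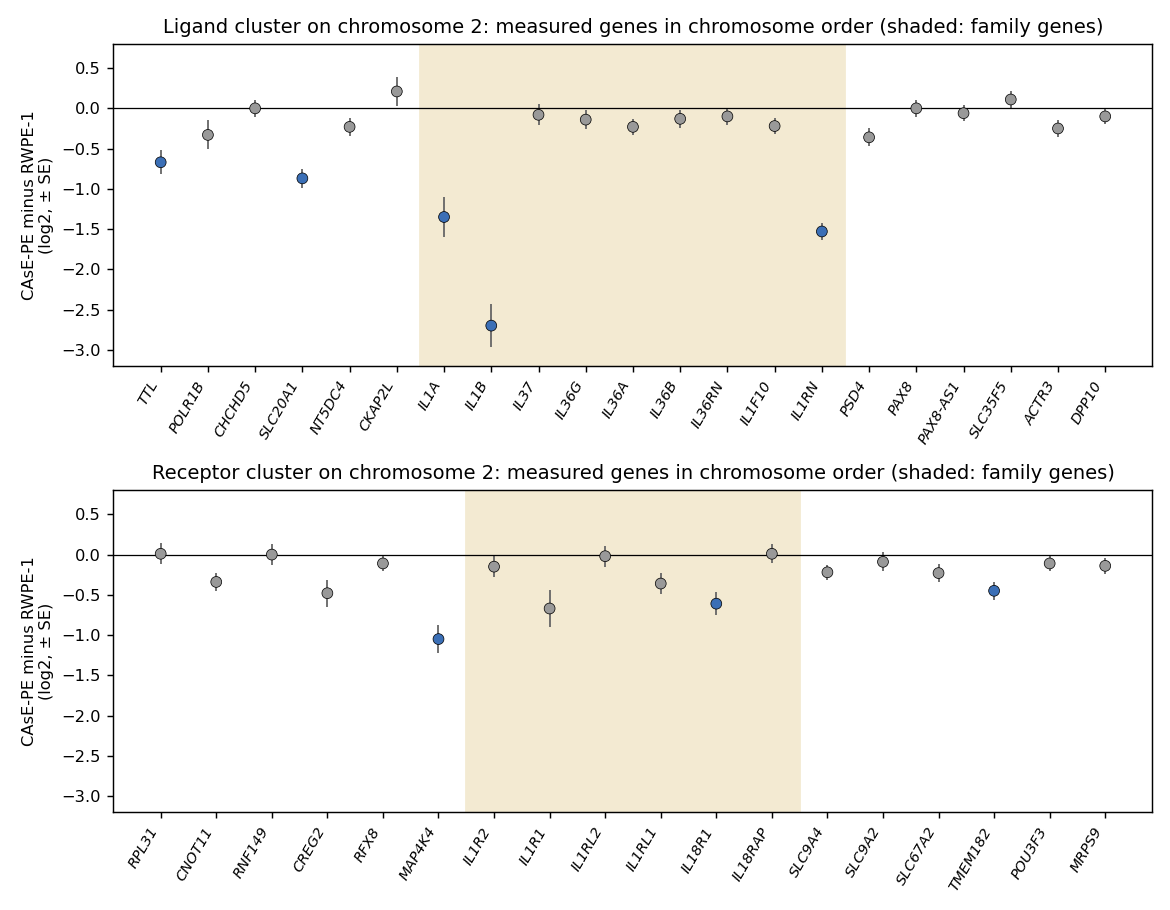
Measured genes are placed in their order along chromosome 2, not to distance, with the difference between the groups in log2 units ± SE; family genes lie on the shaded part and blue points fell. In the ligand cluster IL1A, IL1B and IL1RN stand below −1.3 at its ends while the 6 genes between them, all among the dimmest 33.3% of genes, lie near 0.

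Promoters are shown for the 4 genes that fell, to set side by side the sequence at their start sites. RefSeq windows on GRCh38.p14, from 250 bases before to 50 after a start, matched 9 of the 10 genes (18 windows), IL18 being the other. The first window listed for each gene is printed 5′ to 3′ on the gene's strand, with capitals for letters that matched a searched motif. The motifs, searched on both strands, were AP-1 (TGANTCA), C/EBP (TTGCNNAA), the antioxidant response element bound by NRF2 (TGACNNNGC), the core promoter box (TATAAA) and NF-kB by its usual degenerate consensus.
IL1A, chr2:112784444-112784743: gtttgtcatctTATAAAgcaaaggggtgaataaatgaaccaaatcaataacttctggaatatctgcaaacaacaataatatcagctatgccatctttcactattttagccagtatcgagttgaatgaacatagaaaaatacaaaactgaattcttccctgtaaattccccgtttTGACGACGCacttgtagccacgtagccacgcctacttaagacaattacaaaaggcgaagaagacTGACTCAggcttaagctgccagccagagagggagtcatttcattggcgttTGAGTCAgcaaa
IL1B, chr2:112836730-112837029: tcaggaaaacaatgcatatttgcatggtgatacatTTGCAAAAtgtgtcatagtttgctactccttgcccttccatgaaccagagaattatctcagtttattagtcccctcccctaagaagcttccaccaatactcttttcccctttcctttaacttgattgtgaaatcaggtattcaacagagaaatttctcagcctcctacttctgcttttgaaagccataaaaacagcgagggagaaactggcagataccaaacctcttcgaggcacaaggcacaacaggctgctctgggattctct
IL1RN, chr2:113117721-113118020: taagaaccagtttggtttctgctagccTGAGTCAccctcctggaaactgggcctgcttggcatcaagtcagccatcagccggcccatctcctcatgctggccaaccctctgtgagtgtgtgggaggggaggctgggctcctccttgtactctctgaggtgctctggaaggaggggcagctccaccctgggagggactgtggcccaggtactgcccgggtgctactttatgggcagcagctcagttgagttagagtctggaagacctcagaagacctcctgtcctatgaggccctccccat
IL1RAP, chr3:190513835-190514134: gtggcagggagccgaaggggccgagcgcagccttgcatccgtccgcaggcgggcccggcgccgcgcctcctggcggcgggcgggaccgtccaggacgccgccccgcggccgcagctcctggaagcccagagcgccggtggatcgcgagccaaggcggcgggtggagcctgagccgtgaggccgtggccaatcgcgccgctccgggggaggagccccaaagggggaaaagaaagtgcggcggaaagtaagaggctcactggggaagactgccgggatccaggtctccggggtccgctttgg

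The IL1A window (minus strand) held 2 AP-1 matches, at −12 to −6 and 39 to 45 from the start, a motif found in 7.71% of all 35116 windows. It also held an antioxidant response element match at −76 to −68 (13.3% of windows) and a match to the core promoter box at −239 to −234 (11.5%). In the IL1B window (minus strand) the one match was to C/EBP, at −215 to −208 (10.5%). The printed IL1RN window (plus strand) had 1 AP-1 match, at −223 to −217, and the IL1RAP window (plus strand) had none of the 5 motifs. IL1RN has 3 windows. Those not printed held no AP-1 match, and the last listed had 2 matches to the core promoter box, at −32 to −27 and −30 to −25. NF-kB matches, present in 11.3% of windows, were in none of the 4 printed windows, which says only that those letters are not in them. The windows also differed in composition. IL1RAP was 73.7% G and C with a CpG observed-to-expected ratio of 0.90, whereas the ratio was 0.68 for IL1A, 0.15 for IL1B and 0.08 for IL1RN. No match overlapped another in the 4 printed windows. A match is a description of the letters and not evidence of binding.

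Of 12 further family genes, 1 fell (IL18R1, above) and 1 rose, or 16.7% changed beside 17.7% of all genes. The riser was SIGIRR, an orphan receptor of the family that dampens interleukin 1 and Toll-like receptor signalling. SIGIRR read 7.44, 7.63 and 7.87 in RWPE-1 and 8.01, 8.20 and 8.13 in CAsE-PE. The groups were separate, and the difference was 0.47 (SE 0.13, adjusted p = 0.0347). Its call was lost without the array of passage 18, passage 38, 33.5 weeks or 35 weeks (highest adjusted p = 0.113, without passage 18) and after quantile normalisation (0.0603). Of the 12 genes, 10 were among the dimmest 33.3%.

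Downstream of the receptor, MYD88 and IRAK kinases pass the signal to TRAF6, the TAK1 complex, MAP kinases and NF-kB. Of 35 measured genes of this route, 5 fell and 3 rose, 22.9% beside 17.7% of all genes, with a median difference of −0.14. The deepest fall was in IRAK3, a pseudokinase that restrains the pathway, from 7.61, 7.92 and 7.76 to 6.42, 6.67 and 7.05. The groups did not overlap and the difference of −1.05 (SE 0.16, adjusted p = 0.00247) passed in all 14 alternative fits. The atypical IkB family gene NFKBIZ (−0.59, adjusted p = 0.0170), the ubiquitin ligase PELI1 (−0.54), the NF-kB subunit gene NFKB1 (−0.53) and the kinase IRAK1 (−0.38) fell as well. Each lost its call without any 1 of 4 or 5 of the arrays (highest adjusted p between 0.0709 and 0.128). NFKBIZ also lost its call after quantile normalisation (adjusted p = 0.0594) and with neighbours' shift taken off (0.0665). IRAK1 did so with median centring (0.0503) and with neighbours' shift taken off (0.0912). Falls on this route numbered 1 without passage 38 and 2 without passage 18, 33.5 weeks or 35 weeks. NFKB1 and IRAK1 are named to complete the count, after their values were seen. MAP3K3 (0.61, SE 0.09, adjusted p = 0.00247) and the JNK kinase gene MAPK9 (0.56, SE 0.10, adjusted p = 0.00446), both protein kinases, rose. IKBKG, the regulatory subunit of the IkB kinase, was higher by 0.33 (adjusted p = 0.0495), a call lost with any 1 array left out.

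Other members of this route did not pass. MYD88, the adaptor of the receptor complex, differed by −0.40 (SE 0.15, adjusted p = 0.0952). The feedback inhibitor TNFAIP3 read 7.73, 8.08 and 6.36 against 6.64, 5.86 and 5.91 (−1.25, SE 0.39, adjusted p = 0.0577). Passage 42 again lay within the CAsE-PE range of that gene. NFKBIA, the IkB alpha gene, differed by 0.24 (SE 0.21, adjusted p = 0.456), and its 30-week value of 10.14 was above the 9.25 to 9.58 of the other arrays.

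Processing and release involve inflammasomes, caspase 1, gasdermin pores and, for interleukin 1 alpha, calpain. Of 26 measured genes, 3 fell and 2 rose, 19.2% beside 17.7% of all genes. CASP1, which cleaves the precursors of interleukin 1 beta and 18, read 7.34, 7.51 and 6.98 against 6.99, 6.75 and 7.34 (−0.25, SE 0.18, adjusted p = 0.361). The adaptor PYCARD (0.14, adjusted p = 0.597) and the pore protein GSDMD (−0.15, adjusted p = 0.423) did not pass either. The calpain genes CAPN2 (−0.66, SE 0.12, adjusted p = 0.00651) and CAPN1 (−0.36, SE 0.10, adjusted p = 0.0331) fell, and so did the gasdermin GSDME (−0.61, SE 0.11, adjusted p = 0.00654). The call of CAPN2 was lost with its neighbours' shift taken off (adjusted p = 0.478) and that of CAPN1 with any 1 array left out. SERPINB1, an inhibitor of neutrophil proteases, rose by 1.21 (SE 0.15, adjusted p = 0.000830), and NINJ1, which ruptures the membrane of dying cells, by 0.84 (SE 0.18, adjusted p = 0.0120, or 0.0555 without passage 38, when SERPINB1 was the only 1 of the list to rise).

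Genes known to be induced by interleukin 1 in epithelia went both ways. Of 37 measured, 2 fell and 4 rose, 16.2% beside 17.7% of all genes, with a median difference of −0.07. PTGS2, the inducible cyclooxygenase, fell from 7.56, 7.44 and 6.64 to 5.18, 4.92 and 4.65 (−2.30, SE 0.23, adjusted p = 0.000275). CCL20, a chemokine, fell from 6.91, 7.33 and 6.43 to 5.49, 5.77 and 5.54 (−1.28, SE 0.20, adjusted p = 0.00274). Neither gene's groups overlapped, but both genes were among the dimmest 33.3%, so the size of their falls is uncertain. The rises were in TNFAIP2 (1.81, SE 0.12, adjusted p = 2.59e-05), the prostaglandin E synthase PTGES (1.43, SE 0.26, adjusted p = 0.00553), the iron-binding protein LCN2 (0.77, SE 0.19, adjusted p = 0.0200) and the superoxide dismutase SOD2 (0.47, SE 0.10, adjusted p = 0.0122). The calls of LCN2 and SOD2 were lost with 1 array left out (LCN2 adjusted p = 0.0679 without passage 18 and 0.0546 without passage 38, SOD2 0.0631 without passage 38), so that 2 genes rose without passage 38. With its neighbours' shift taken off LCN2 differed by 0.46 (adjusted p = 0.2). SOD2 was named after its value was seen. The cytokine genes IL6 and CXCL8 differed by −0.02 (95% interval −0.37 to 0.33) and −0.11 (−0.76 to 0.54), among the dimmest 33.3% of genes.

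**Figure D5:**
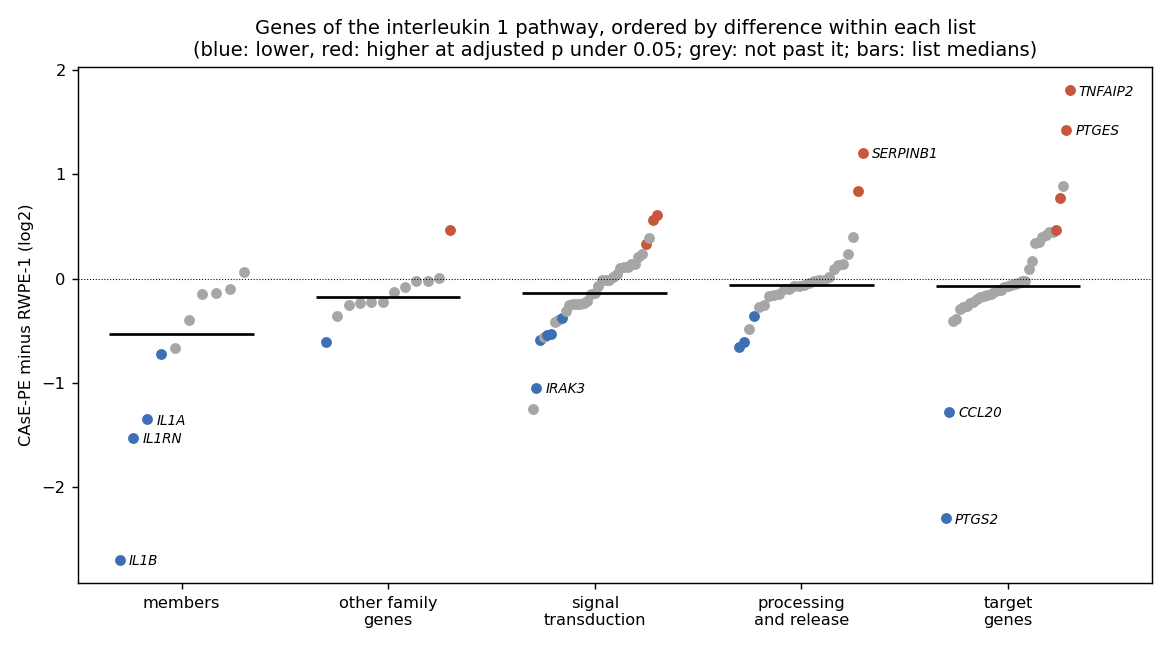
Every measured gene of 5 lists is a point at its difference between the groups in log2 units, ordered within its list, with a bar at the list median; blue points fell, red rose and grey did not pass. The 10 members have the lowest median, −0.53, while the medians of the other lists lie between −0.17 and −0.06, and labels mark called genes past 1 log2 unit.

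Markers of other cell types were set beside these falls because leukocytes are a main source of IL1B and IL1RN. Of 14 leukocyte markers, 2 fell, CD68 (−0.89, adjusted p = 0.00516) and CD14 (−0.43, adjusted p = 0.0262), beside 8.71% of all genes. The call of CD14 was lost after quantile normalisation (−0.31, adjusted p = 0.0837). It was also lost without passage 18, passage 38 or 35 weeks (highest adjusted p = 0.0989). That of CD68 held in all 14 alternative fits. All 14 differences were negative, as were those of 10950 of all 18417 genes. Of these markers, 11 were among the dimmest 33.3% of genes. The median difference over all genes was −0.06, and −0.01 after quantile normalisation or without the dimmest 33.3%. Whether the shared sign came from leukocytes was not tested. The summed intensity of the leukocyte list was 1781 to 2107 in RWPE-1 and 1130 to 1478 in CAsE-PE. Without CD68, a lysosomal protein that other cells also make, it was 737 to 804 and 596 to 695. PTPRC read 3.95, 3.99 and 3.84 against 3.73, 3.86 and 3.75. No marker was listed at 0. The part of these markers in the falls of IL1B and IL1RN was not tested.

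By the likeness rule, the 3 genes with the highest Pearson correlation of log2 values over the 6 arrays were taken for each gene that fell, among 12277 genes outside the dimmest 33.3%. For IL1B they were the phospholipid flippase ATP11A (r = 0.9968), PCNX4 (0.9967) and RPS6KC1 (0.9951), whose own falls were small (−0.63, −0.51 and −0.69). For IL1A they were the membrane protein EMP1 (0.9941, difference −0.65), KIAA0040 (0.9909, difference −1.10) and MYOF (0.9886, difference −0.14, adjusted p = 0.340). For IL1RN they were the metalloprotease ADAMTS1 (0.9998, difference −2.23), the laminin chain LAMB2 (0.9996, difference −1.85) and ETHE1 (0.9990). For IL1RAP they were the BMP co-receptor RGMB (0.9983, difference −0.43, adjusted p = 0.0728), the interferon-induced IFITM2 (0.9963, difference −0.27, adjusted p = 0.141) and the integrin ITGA2 (0.9940, difference −0.85). These 6 points fall into 2 groups, so such values can restate the group difference, although MYOF, RGMB and IFITM2 did not pass for it. The correlations are given as a description.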

How the data were processed

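The authors deposited 1 processed intensity per feature and array for 33252 features. How they were background-corrected, summarised and normalised is not given here by any source, and the scale was judged linear from the range of the values. Features were named from GEO's platform annotation, which gave 1 symbol for 19460, several for 1754 and did not list 12038. Each of 18417 genes was represented by its brightest single-symbol feature. Values were taken as log2(intensity + 1), a pseudocount that understates fold changes of dim genes. Groups followed the phenotype label and were compared by the two-sided moderated test of limma (version 3.58.1, R 4.3.3), with p-values adjusted over all genes. Gene order and promoter sequences came from RefSeq, GRCh38.p14. Balances used the exact permutation test of scipy 1.17.1. The fit was tested on simulated data. The family genes, gene lists and tests were chosen with earlier results of these data known.

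Named genes were the 10 family genes, up to 3 rises and 3 falls per list among called genes with separate groups, 14 listed by name whatever their call (IRAK4 and NLRP1 were not analysed here), and 3 most alike per called gene. Exceptions are marked. The precision is limited by 3 arrays a group. Alternatives were quantile normalisation, median centring, a pseudocount of 16, leaving out the dimmest 33.3% of genes, the mean of a gene's features, another variance model, array weights, neighbours' shift taken off and each array left out in turn.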

Additional observations from a re-analysis of the deposited data

How the results depend on the processing

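IL1A, IL1B and IL1RN fell in all 14 alternative fits, and of 135 values of the 10 genes under alternatives 116 kept direction and side of the threshold. IL1RAP lost its call with median centring (−0.69, adjusted p = 0.0604), a pseudocount of 16 (−0.69, 0.0561), the trend and robust variance model (−0.72, 0.0543) and neighbours' shift taken off (−0.60, 0.134), and its differences with 1 array left out were −0.98 to −0.53. With array weights IL33 (−0.58) and IL1R1 (−0.80) passed. Signs turned, without passing, for IL36RN after quantile normalisation (0.03), for IL18 (−0.05), IL36G (0.05), IL36RN (0.09) and IL1R2 (0.04) with neighbours' shift taken off, and for IL18 with 1 array left out (−0.00043 to 0.15). The IL1RN minus IL1A shift was 0.02 with a pseudocount of 16 and −0.51 to 0.005 with 1 array left out, where the IL36RN minus IL36G shift was −0.08 to 0.21, IL1R2 minus IL1R1 0.24 to 0.72 and IL1RN minus IL1B 0.92 to 1.51. Array weights called 2596 genes higher and 2746 lower over all genes, against 949 to 1665 and 939 to 1519 with 1 array left out. The 10 genes held 3 to 5 falls with 1 array left out and 3 to 6 in the other fits. Lists with 1 array left out held 0 to 1 rises and 0 to 2 falls (other family), 1 to 6 falls (signal transduction), 1 to 2 rises (processing) and 2 to 5 rises (targets). Other family genes had 0 rises after quantile normalisation, 0 falls without the dimmest genes and 2 with array weights. Array weights gave 11 falls in signal transduction and 4 among targets, targets had 0 falls without the dimmest genes, which hold PTGS2 and CCL20, and processing had 1 fall with neighbours' shift taken off. Apart from that filter and the smaller number of arrays, the cause was not tested. No paired analysis was possible because the labels give passages to one group and weeks to the other, with nothing that matches arrays across the groups.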

Other observations

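Several genes that interleukin 1 or other inflammatory signals induce varied more among arrays of a group than between the groups. They were picked after their values were seen. The acute-phase gene SAA1 read 5.67, 6.53 and 5.45 at the 3 RWPE-1 passages, from 18 to 42, and 6.47, 5.73 and 6.71 after 30, 33.5 and 35 weeks of arsenite. SAA2, its near-identical neighbour, whose signal cannot be told apart from it here, read 6.19, 7.23 and 5.89 and then 7.36, 6.27 and 7.03. The calprotectin gene S100A8 read 6.55, 7.34 and 6.22 and then 8.72, 6.60 and 7.46, and the complement gene C3 read 7.44, 8.49 and 7.25 and then 8.30, 6.51 and 7.13. All 4 were highest in RWPE-1 at passage 38 and lowest in CAsE-PE at 33.5 weeks, the array on which IL1A and IL1B were also lowest, and limma gave adjusted p-values of 0.227 to 0.541 for their group differences. The kinase gene IRAK2 read 8.38 at 30 weeks and 7.16 to 7.37 on the other arrays.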
